A study of Mus musculus with 15 samples.

Results

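The nuclear genes for oxidative phosphorylation subunits were examined in hematopoietic stem cells, the rare bone marrow cells from which all blood lineages arise. The set held 44 of the 20696 genes in the expression table, chosen by gene symbol: 11 subunits of complex I, 4 of complex II, 6 of complex III, the carrier cytochrome c, 11 of complex IV and 11 of complex V. Ndufa4, named for complex I, was placed with complex IV, in which its protein is now known to sit. All 44 passed the filter on low values that was used for testing, a mean of at least 1 FPKM over all libraries. FPKM is fragments per kilobase of gene model, scaled to a size set for each library. In total 11345 genes passed.

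The study compared RNA from flow-sorted stem cells of mice, with 3 groups and 5 libraries in each. Young controls were 3 months old, aged controls 18 months old, and the third group was 18 months old and labelled aged Thbs1 knockout. Thbs1 encodes thrombospondin-1, a secreted glycoprotein of the extracellular matrix. The library names also carry a sex, with 2 male and 3 female young controls, 3 and 2 aged controls, and 2 and 3 libraries labelled aged Thbs1 knockout. The labels give neither the strain of the mice nor the nature of the Thbs1 allele. Whether each sample is a separate animal is not stated either, so the p-values reflect only how far these samples scatter, which may be technical.

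Oxidative phosphorylation takes place in the inner mitochondrial membrane. Complexes I and II accept electrons from NADH and succinate, complex III passes them from ubiquinol to cytochrome c, and complex IV delivers them to oxygen. Complexes I, III and IV pump protons, and complex V, the ATP synthase, uses the returning protons to make ATP. Complex II is built from nuclear genes alone, while each of the others also holds subunits encoded by mitochondrial DNA. Quiescent hematopoietic stem cells are known for relying largely on glycolysis, and for turning to oxidative phosphorylation when they enter the cycle and differentiate.

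Nuclear factors such as NRF1, the ETS factor GABP, YY1 and ERR alpha are known to bind promoters of many respiratory genes. RefSeq promoter windows (GRCm38.p6, 300 bases from 250 before to 50 after the start) matched 34 of the 44 genes. They were searched on both strands for 4 short motifs, and 15 of the 34 held at least 1. GCGCATGC, part of the NRF1 motif, stood in 6 windows or 17.6%, against 3.05% of all 27025 genes with a window. The ETS motif CCGGAAG stood in 9 or 26.5%, against 9.93% of all genes. The YY1 motif AAGATGGC stood in 3 or 8.82%, against 3.19%, and the ERR motif AAGGTCA in 4 or 11.8%, against 5.38%. A match describes the letters only and is not evidence of binding.

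Stretches of 4 promoters are given, of 60 bases before the start or of 30 bases after it. Their genes had the smallest unadjusted p in any comparison, the sexes included, among those holding one of these motifs (in capitals). That p came from the comparison of the sexes for Cycs, Uqcrc1 and Ndufb8, and from the knockout label against young controls for Atp5j. None of the 4 genes was called. Each is written 5′ to 3′ on the gene's strand. Cycs lies at chr6:50566596-50566655 on the minus strand and holds the NRF1 letters on the reverse strand, 60 bases before the start. Uqcrc1 lies at chr9:108936668-108936697 on the plus strand and holds them on both strands, overlapping each other, from 30 bases after the start. Ndufb8 lies at chr19:44555393-44555422 on the minus strand and holds the YY1 letters 38 bases after the start. Atp5j lies at chr16:84835018-84835077 on the minus strand and holds the YY1 letters 88 bases and the ETS letters 61 bases before the start.
Cycs: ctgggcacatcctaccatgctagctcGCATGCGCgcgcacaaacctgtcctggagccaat
Uqcrc1: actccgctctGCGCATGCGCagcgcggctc
Ndufb8: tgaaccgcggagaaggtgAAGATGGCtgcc
Atp5j: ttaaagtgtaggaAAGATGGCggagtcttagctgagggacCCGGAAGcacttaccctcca

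Several facts of the libraries touch the results. Thbs1 lay between 1.69 and 17.89 FPKM in the libraries labelled aged Thbs1 knockout, between 0.70 and 13.38 FPKM in young controls and between 0.01 and 8.75 FPKM in aged controls, so it was not lower where the label names a knockout. Libraries held 16650000 to 28620000 reads in genes. Replicates 2 and 5 of the libraries labelled aged Thbs1 knockout had the largest shares of rRNA-like reads, 4.57% and 2.228%, against 0.583% to 1.49% in the other 13 libraries. All 10 hematopoietic stem cell markers had a mean of at least 1 FPKM. Their summed level was 798.12 to 851.56 FPKM in young controls, 958.71 to 1064.3 FPKM in aged controls and 673.65 to 866.27 FPKM under the knockout label. Of the 10, 3 were called higher with age (4.42% of all tested genes were called). Under the label against aged controls 1 was called lower (1.55% of all were called). None of 6 macrophage and dendritic cell markers reached a mean of 1 FPKM. Erythroid markers summed to 34.1 to 69.33, 40.4 to 103.61 and 15.42 to 90.79 FPKM in the same order of groups. B cell markers summed to 35.58 to 47.23, 37.74 to 65.2 and 30.61 to 57.2 FPKM. T and NK cell markers summed to 50.98 to 101.93, 44.58 to 117.13 and 21.93 to 56.04 FPKM. The neutrophil and granulocyte progenitor list, led by Prtn3, had summed levels of 90.84 to 143.33 FPKM in the young group, 193.99 to 380.07 FPKM in the aged controls, and 160.11 to 382.7 FPKM under the knockout label. Prtn3 alone was called in it, with a log2 difference of 1.49 with age (adjusted p = 0.000433) and mean levels of 101.9, 295 and 199.9 FPKM in the 3 groups, while S100a9 had -0.69 and Mpo -0.29 with age, neither called. The 5 megakaryocyte markers summed to 348.94 to 458.23 FPKM, 267.98 to 1900.26 FPKM and 156.83 to 320.45 FPKM in the same order of groups. Of these, Itga2b was higher in aged than in young controls (log2 difference 1.01, adjusted p = 0.0381) and lower under the label than in aged controls (-1.80, adjusted p = 0.00101), and Ppbp was lower in both aged groups than in the young. The part of these markers in the results was not tested.

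No oxidative phosphorylation gene passed the test in any comparison of the 3 groups. In limma's test, with Benjamini-Hochberg adjusted p under 0.05 over all tested genes, 0 of 44 were called in aged against young controls, where 4.42% of all tested genes were. The count was also 0 of 44 for the knockout label against aged controls (1.55% of all tested genes) and against young controls (1.63%). An unadjusted p under 0.05 was reached by 1 of 44 genes with age (Ndufs1), where 20% of all tested genes reached it. It was reached by 1 of 44 under the knockout label against aged controls (Cox7b; 12.9% of all) and by 3 of 44 against young controls (Cox4i1, Cox7c and Atp5g1; 21.2% of all). In no gene of the set did the 5 values of one group lie wholly above or below those of another, against 7.16%, 2.34% and 4.5% of all tested genes in the 3 comparisons in the same order. Voom on reads recovered from the table likewise called 0 of 44 in each comparison, against 4.11%, 1.22% and 1.38% of all tested genes.

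The intervals limit how large a difference could have been missed. On the log2(FPKM + 1) scale, the median standard error was 0.193. The 95% interval lay within a 2-fold difference either way for 44, 44 and 43 of 44 genes in the 3 comparisons, and within 1.5-fold for 21, 36 and 14 of them. The exception at 2-fold was Cox4i1 under the knockout label against young controls, whose interval reached 1.06. In bulk RNA, fewer cells of a type and less RNA per cell cannot be told apart.

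**Figure D1:**
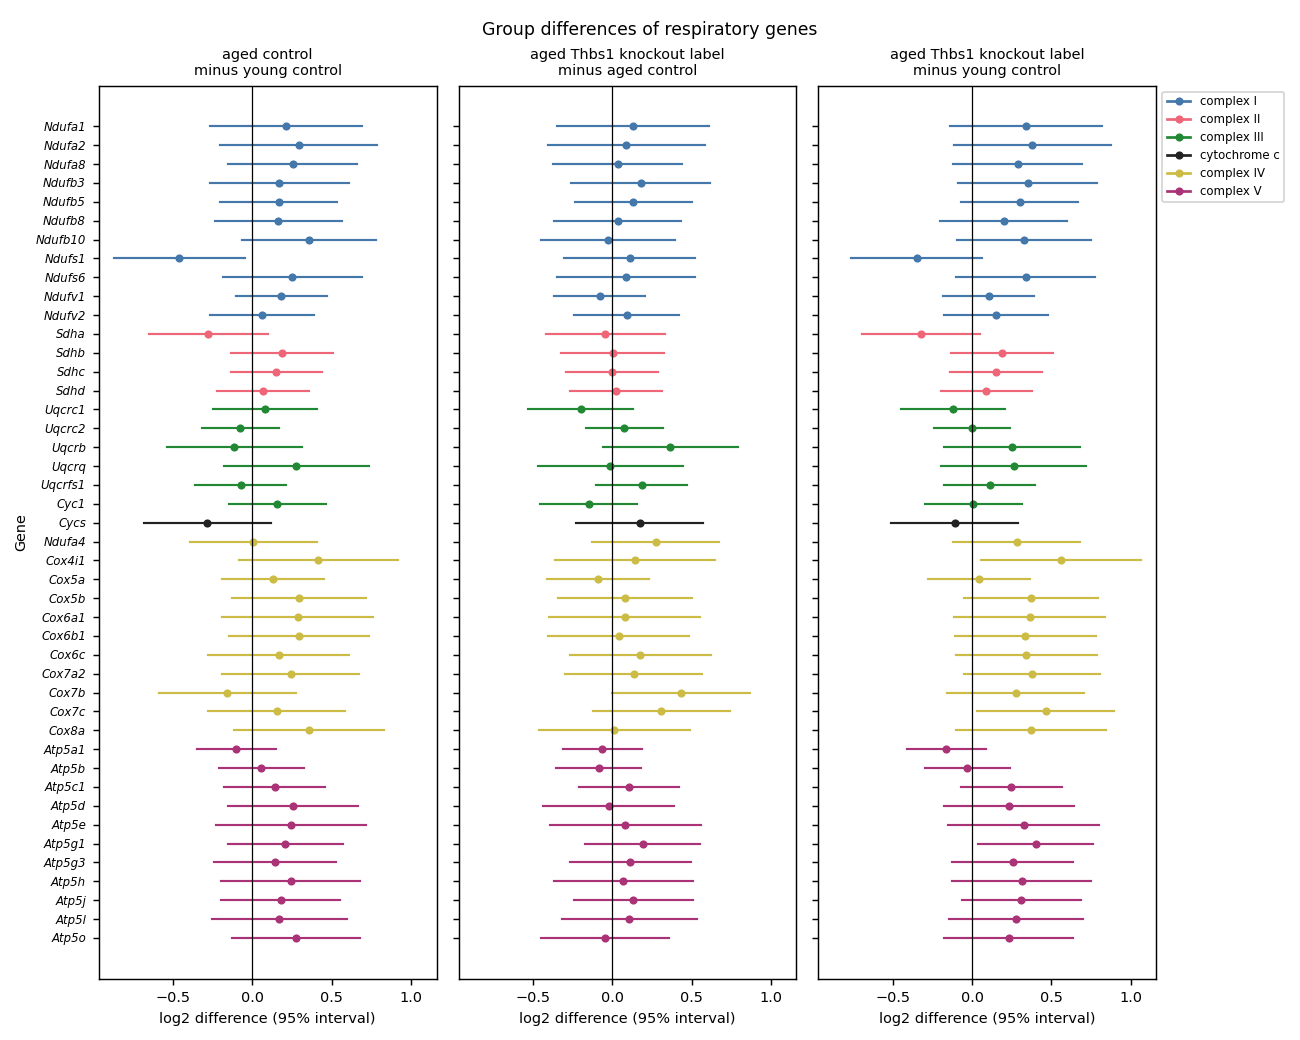
The log2 difference of each gene, with its 95% interval, on log2(FPKM + 1) in 3 comparisons of 5 libraries against 5; colours mark the complex. Most points lie slightly right of 0, Ndufs1 and Sdha lie left of it in the 2 comparisons with young controls, and 0 of 44 genes passed the test in any panel.

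The differences leaned upward without passing a test. In aged against young controls the median log2 difference over the 44 genes was 0.17, with 36 above 0, against a median of -0.02 and 47.8% above 0 over all tested genes. Under the knockout label the median was 0.08 against aged controls, with 32 of 44 above 0, and 0.27 against young controls, with 37 of 44 above 0. The same medians over all tested genes were -0.03 and -0.06, with 45.4% and 42.7% above 0. The comparisons share libraries, so these values are not separate lines of evidence. Libraries were grouped by sample title. The sample descriptions point to another sample for 10 of the 15 columns, and with the columns grouped by them the 3 medians were -0.04, -0.01 and -0.06, with 0 of 44 genes called. In that grouping 0, 0 and 15 of the 11345 tested genes were called, so the 0 says little about these 44.

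The lean under the knockout label came with 2 libraries. Replicate 5 under that label held the highest value of all 15 libraries for 35 of the 44 genes, and replicates 5 and 2 were the highest pair within the label for 34 genes. Without both, the median log2 difference was -0.17 against aged controls and -0.02 against young controls. The count of called genes of the set stayed 0, where 1.62% and 1.09% of all tested genes were called. Without replicate 5 alone the medians were -0.06 and 0.11.

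**Figure D2:**
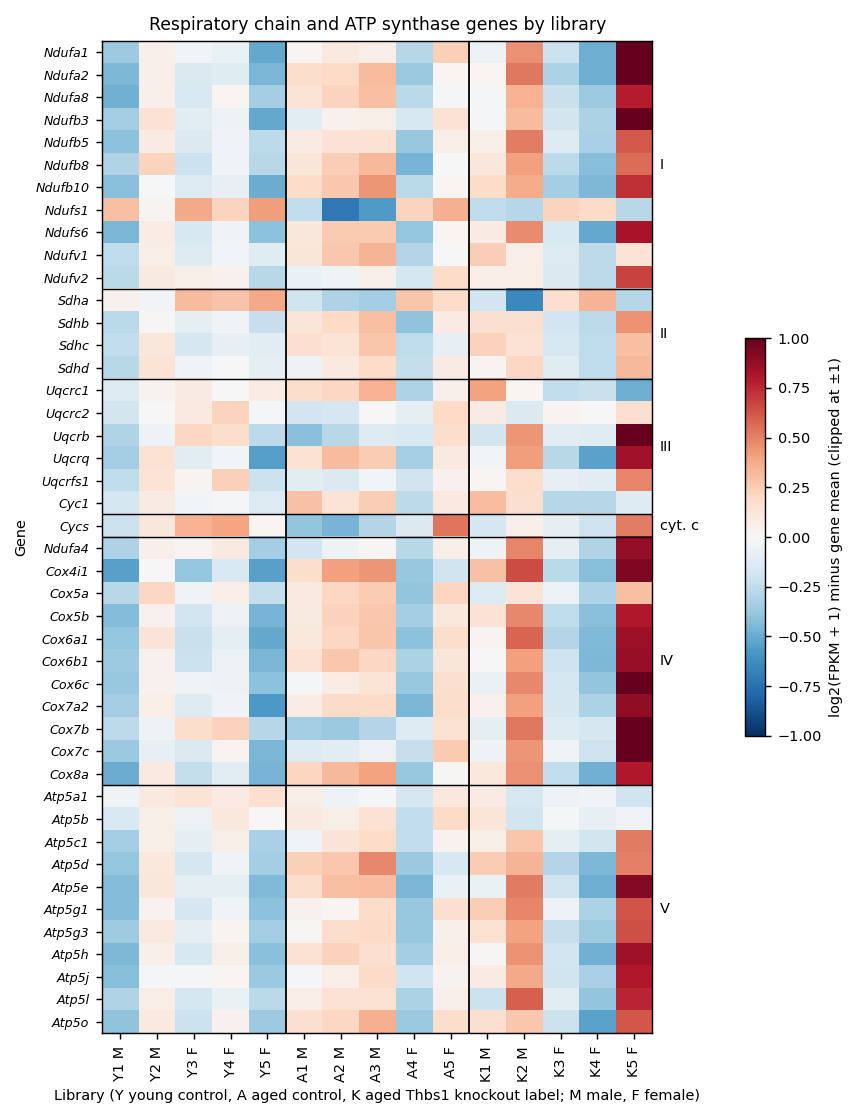
Each row is a gene, grouped by complex, and each column a library; colour gives log2(FPKM + 1) minus the gene's mean over 15 libraries, with values beyond 1 drawn at the end of the scale. Replicate 5 under the knockout label is the darkest red column, young replicates 1 and 5 are mostly blue, and the rows of Ndufs1 and Sdha run opposite to their neighbours.

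Complex I oxidises NADH. Its 11 genes spanned a 28.2-fold range of mean level, from Ndufs1 at 9.35 FPKM to Ndufa2 at 263 FPKM. Ndufs1 carries iron-sulfur clusters in the hydrophilic arm and is the largest subunit of the complex. Its young control values were 11.39, 9.27, 12.08, 10.76 and 12.43 FPKM, its aged control values 7.47, 5.12, 5.81, 10.73 and 11.87, and those labelled aged Thbs1 knockout 7.45, 7.26, 10.74, 10.52 and 7.28. The young values were the most even, while aged control replicates 4 and 5 reached into the young range and the other 3 lay below it. The log2 difference with age was -0.46 (SE 0.20, adjusted p = 0.20 in limma), the lowest of all 44 genes, and under the knockout label against young controls it was -0.35 (SE 0.20, adjusted p = 0.30).

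Ndufs1 was alone among the complex I genes in having lower means in both aged groups than in the young. The other 10 had positive differences in both comparisons with young controls, and the complex medians were 0.18 and 0.30. Against aged controls the median was 0.09, with 9 of 11 above 0. Without replicates 2 and 5 of the knockout label, the median was -0.235 against aged controls and -0.02 against young controls.

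Ndufa2, a small accessory subunit of the hydrophilic arm, had 184.46, 260.83, 227.98, 232.09 and 183.57 FPKM in young controls, 284.49, 290.10, 313.49, 195.02 and 255.47 in aged controls, and 255.85, 363.04, 202.70, 179.05 and 520.20 under the knockout label. Ndufa1, an X-linked subunit of the membrane arm, had 160.07, 212.97, 202.32, 196.95 and 144.06 FPKM in young controls, 209.32, 220.19, 215.50, 169.04 and 242.77 in aged controls, and 197.73, 282.59, 177.77, 146.99 and 440.96 under the label. Ndufb3, also of the membrane arm, had 98.08, 137.97, 115.54, 120.58 and 87.24 FPKM in young controls, 115.53, 128.50, 130.06, 111.84 and 138.26 in aged controls, and 123.49, 155.86, 109.81, 99.82 and 265.82 under the label. In all 3 genes the groups overlapped, and the label's replicate 5 stood far above every other library. Ndufb3 had the smallest p of complex I under the knockout label against aged controls, with a log2 difference of 0.18 (SE 0.21, adjusted p = 0.76). That difference was -0.17 without replicates 2 and 5 of the label and -0.05 without replicate 5.

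Complex II, succinate dehydrogenase, also works in the tricarboxylic acid cycle. Its 4 genes had the mean levels 218 FPKM for Sdhd, 109 for Sdhb, 106 for Sdha and 48.9 for Sdhc, and the ranges of Sdhb and Sdha over the libraries overlapped. Sdha is the flavoprotein that oxidises succinate. It had 107.08, 101.57, 129.31, 126.59 and 135.24 FPKM in young controls, 90.24, 83.48, 81.43, 126.07 and 117.63 in aged controls, and 90.83, 65.89, 116.85, 131.36 and 84.87 under the knockout label. High values occurred in all 3 groups, and the lowest values in the 2 aged groups. The log2 difference was -0.28 with age (SE 0.18, adjusted p = 0.38), -0.04 under the knockout label against aged controls (adjusted p = 0.94) and -0.32 against young controls (SE 0.18, adjusted p = 0.29).

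The membrane anchors of complex II, which hold the haem and bind ubiquinone, varied less. Sdhd had 178.43, 238.41, 210.86, 217.19 and 201.93 FPKM in young controls, 208.52, 230.87, 246.05, 182.91 and 229.34 in aged controls, and 220.81, 249.95, 198.26, 181.23 and 271.33 under the label. Sdhc had 40.63, 52.45, 42.91, 45.83 and 44.69 FPKM, then 54.59, 53.44, 59.10, 40.45 and 45.82, then 56.92, 53.53, 43.18, 40.45 and 59.77 in the same order of groups. All 3 groups overlapped in both. The complex medians were 0.11 with age, 0.00 under the label against aged controls and 0.12 against young controls.

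Complex III passes electrons from ubiquinol to cytochrome c. Its 6 genes kept the narrowest range of mean level among complexes I to V, 3.36-fold, from Uqcrc2 at 64.5 FPKM to Cyc1 at 217 FPKM. Cyc1, the cytochrome c1 haem subunit, had 190.28, 227.44, 210.01, 211.41 and 195.57 FPKM in young controls, 262.50, 236.32, 255.28, 178.40 and 229.94 in aged controls, and 265.67, 240.37, 175.59, 175.47 and 196.29 under the label. Uqcrc2, a core protein, had 56.47, 64.51, 68.96, 75.09 and 63.57 FPKM in young controls, 56.01, 57.07, 63.98, 60.42 and 74.09 in aged controls, and 68.00, 58.20, 65.66, 63.92 and 72.16 under the label. Neither gene had its highest value of all 15 libraries in replicate 5 of the label, in contrast to most of the set. Within the label, Uqcrc2 was highest in replicate 5, at 72.16 FPKM.

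Replicate 5 of the label held the highest value of Uqcrb, Uqcrq and Uqcrfs1, the Rieske iron-sulfur protein, at 166.68 FPKM for the last. For the remaining member, the core protein Uqcrc1, that library held the lowest value of all 15 libraries, 90.01 FPKM. Uqcrb, a ubiquinone-binding protein, had 132.20, 157.11, 187.80, 184.09 and 135.51 FPKM in young controls, 121.56, 133.96, 149.08, 146.74 and 183.94 in aged controls, and 143.23, 221.76, 150.97, 149.64 and 325.91 under the label. Uqcrq had 53.56, 76.34, 63.28, 67.12 and 46.39 FPKM in young controls, 76.13, 85.44, 82.20, 54.22 and 73.30 in aged controls, and 67.43, 91.91, 56.31, 46.95 and 123.76 under the label. The groups overlapped in both. The log2 difference of Uqcrq with age was 0.28 (SE 0.22, adjusted p = 0.47), and that of Uqcrb was 0.37 under the label against aged controls (SE 0.20, adjusted p = 0.46) and 0.25 against young controls (adjusted p = 0.45). Without replicates 2 and 5 of the label, the Uqcrb differences were 0.02 and -0.09. The complex medians were 0.00, 0.03 and 0.06, the smallest of the multi-gene complexes in the 2 comparisons with young controls.

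Cytochrome c, encoded by Cycs, carries electrons from complex III to complex IV and is known to trigger apoptosis when released from mitochondria. It had 14.48, 18.40, 21.91, 22.62 and 17.19 FPKM in young controls, 12.7, 12, 13.65, 15.26 and 25.01 in aged controls, and 15.03, 17.66, 15.93, 14.59 and 24.56 under the label. In aged controls 4 libraries lay between 12 and 15.26 and replicate 5 stood alone at 25.01, the highest value of all 15 libraries. The log2 difference was -0.28 with age (SE 0.19, adjusted p = 0.40), 0.17 under the label against aged controls (adjusted p = 0.75) and -0.11 against young controls (adjusted p = 0.74). Without aged control replicate 5, the difference with age was -0.46.

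Complex IV, cytochrome c oxidase, is where oxygen is consumed, and its nuclear subunits surround a catalytic core made from mitochondrial genes. Its 11 genes spanned 27.4-fold, from Cox5a at 22.1 FPKM to Cox8a at 608 FPKM, the highest level in the set. Cox4i1, the subunit 4 isoform found in most tissues, had 196.91, 287.72, 219.59, 259.14 and 197.93 FPKM in young controls, 325.71, 383.55, 392.58, 220.75 and 251.25 in aged controls, and 352.30, 453.47, 239.02, 213.65 and 551.18 under the label. The young values reached 287.72 at most, while 3 values in each aged group lay at 325.71 or above and the remaining 2 within the young range. The log2 difference was 0.42 with age (SE 0.24, adjusted p = 0.33) and 0.56 under the label against young controls (SE 0.24, adjusted p = 0.20), the highest of the 44 genes in each. Without replicates 2 and 5 of the label, the second difference was 0.19.

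Cox8a, one of the small membrane subunits, had 416.38, 627.89, 495.99, 542.70 and 425.10 FPKM in young controls, 679.30, 733.07, 775.98, 451.69 and 591.07 in aged controls, and 631.22, 805.08, 495.08, 419.37 and 1024.01 under the label. Cox5a, which faces the matrix, had 17.83, 25.37, 21.24, 22.91 and 18.43 FPKM in young controls, 23.44, 25.36, 26.23, 16.43 and 25.54 in aged controls, and 19.78, 23.99, 20.93, 17.43 and 27.17 under the label. Cox7b, an X-linked subunit, had 87.84, 101.86, 119.24, 124.42 and 86.73 FPKM in young controls, 82.65, 81.39, 86.29, 96.49 and 117.83 in aged controls, and 99.14, 152.91, 96.77, 94.16 and 217.73 under the label. The groups overlapped in all 3. For Cox7b the log2 difference under the label against aged controls was 0.43 (SE 0.21, adjusted p = 0.38), and it was 0.07 without replicates 2 and 5.

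Complex IV was the only complex of several genes in which every measured gene had a positive difference in a comparison, 11 of 11 under the label against young controls, with a median of 0.36. The median was 0.24 with age, with 10 of 11 above 0, and 0.14 under the label against aged controls, with 10 of 11 above 0. Without replicates 2 and 5 of the label it was -0.01 against young and -0.23 against aged controls.

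**Figure D3:**
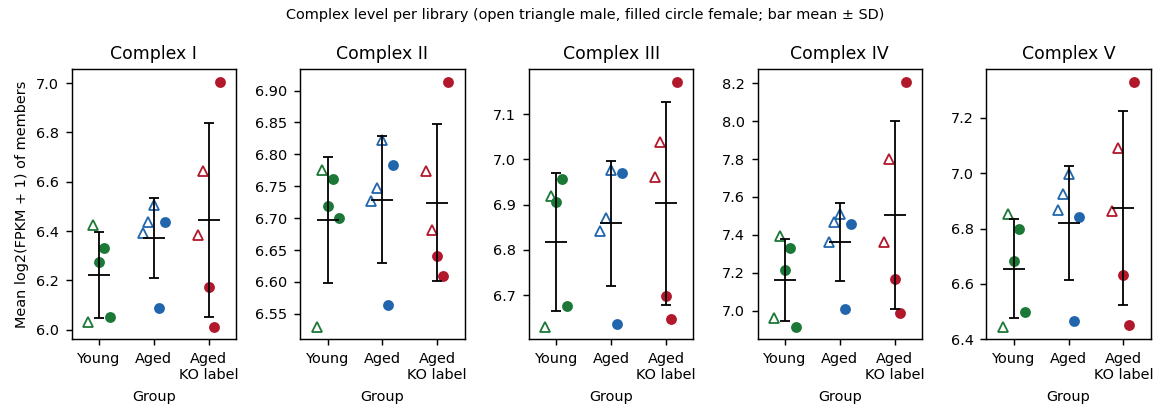
Mean log2(FPKM + 1) of the genes of each complex in each library, with open triangles for male and filled circles for female libraries and bars for the mean ± SD of 5 libraries; each panel has its own axis, which does not start at 0. The groups overlap in every panel, the spread is widest under the knockout label in complexes I and IV, and complex II varies least.

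Complex V turns the proton gradient into ATP. Its 11 genes spanned the widest range of mean level, 83.9-fold, from Atp5l at 4.76 FPKM to Atp5b at 400 FPKM. The gene models bear on this range: the annotated exons of Atp5l cover 6443 nucleotides, against a coding length of 309. Atp5b, the catalytic beta subunit, had 358.84, 415.36, 382.90, 428.65 and 396.52 FPKM in young controls, 423.20, 414.16, 440.92, 334.71 and 456.69 in aged controls, and 432.17, 350.58, 394.78, 376.23 and 389.12 under the label. The groups overlapped. Atp5b and the alpha subunit Atp5a1 (395 FPKM on average) had the smallest spread within groups of the 44 genes, with SDs of 0.13 and 0.10 in log2(FPKM + 1).

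Atp5l, a small membrane subunit, had 3.56, 4.88, 3.97, 4.37 and 3.67 FPKM in young controls, 4.87, 5.20, 5.25, 3.52 and 4.83 in aged controls, and 3.85, 7.48, 4.21, 3.28 and 8.52 under the label. Atp5o, which joins the peripheral stalk to the catalytic head, had 61.60, 87.36, 70.21, 84.38 and 63.45 FPKM in young controls, 91.24, 94.73, 104.65, 63.13 and 92.35 in aged controls, and 92.01, 98.63, 70.40, 56.13 and 126.20 under the label. In both, 4 of the 5 aged controls lay above most young controls and replicate 4 lay among the lowest, so the groups overlapped. The log2 difference of Atp5o with age was 0.27 (SE 0.19, adjusted p = 0.42).

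Atp5g1 is one of several genes that encode the same mature subunit of the c ring, the rotor that protons turn. Its values were 36.30, 50.57, 43.84, 48.00 and 36.97 FPKM in young controls, 50.78, 50.19, 56.22, 37.75 and 55.32 in aged controls, and 58.63, 69.77, 47.33, 39.52 and 77.00 under the label. The log2 difference was 0.40 under the label against young controls (SE 0.17, adjusted p = 0.20) and 0.19 against aged controls (adjusted p = 0.67). Without replicates 2 and 5 of the label these were 0.16 and -0.05. Of the summed FPKM of Atp5g1, Atp5g2 and Atp5g3, Atp5g3 made up 62.2% ± 0.844 (SD, n = 5) in young controls, 60.4% ± 0.924 in aged controls and 60.2% ± 1.59 under the label. Atp5g1 made up 17.4% ± 0.23, 17.8% ± 1.19 and 18.8% ± 0.554. Its share ran from 17.2% to 17.8% in young controls and from 18.4% to 19.7% under the label, so these did not overlap, while aged controls, at 16.2% to 19.5%, overlapped both; the difference in share was not tested. The complex V medians were 0.18 with age and 0.08 and 0.26 under the label against aged and young controls.

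Levels differed far more between genes than between groups. In the order of mean FPKM over all 44 genes, the ranges over the 15 libraries overlapped for 42 of 43 pairs of neighbours, so the order of neighbours was not resolved. Among the 44 genes, 16 are overlapped in the annotation by a gene on the other strand, Ndufs1, Sdha, Cox4i1 and Atp5l among them, and Cycs, Atp5c1 and Atp5l have pseudogenes named after them. The sources used here do not say how reads of such genes were divided, so their values are uncertain to that extent.

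Most of the 44 genes moved together from library to library, and a few did not. After subtracting group means, the mean Pearson r of a gene with the other 43 over the 15 libraries was above 0.5 for 36 genes, between 0 and 0.5 for 5 and below 0 for 3. These libraries differ in composition, which all genes share, so the values describe the libraries and carry no test. The 3 below 0 were Sdha (-0.545), Ndufs1 (-0.48) and Atp5a1 (-0.07), and Sdha and Ndufs1 followed each other at r = 0.84. Complex IV was the most coherent, with a mean r of 0.88 among its own genes, against 0.65 in complex V, 0.60 in complex I, 0.33 in complex III and 0.08 in complex II. In the same order of complexes, the mean r with the rest of the set was 0.67, 0.62, 0.61, 0.49 and 0.41. Genes of complexes I, II and III were thus no more alike within their complex than outside it.

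The 6 lowest mean r values, up to 0.32, belonged to Sdha, Ndufs1, Atp5a1, Atp5b, Uqcrc1 and Uqcrc2. Other catalytic or core subunits had higher values, among them Ndufv2 (0.71), Sdhb (0.73) and Atp5c1 (0.76). The gene with the highest mean r was Atp5g3 (0.76). Over 11344 other tested genes, the 3 most like it were Cox5b (r = 0.997), Rbx1 (0.99) and Snrpd2 (0.99). The 3 most like Sdha were Thumpd1, Slc30a5 and Ptpra, each at r = 0.97.

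Mean log2(FPKM + 1) over the 44 genes ranged from 6.447 in young control replicate 1 to 7.349 in replicate 5 under the knockout label, and that label's replicate 2 had 7.047. The ribosomal protein mean was 8.996 and 9.239 in those replicates 2 and 5, and at most 8.352 in the other libraries. Over the 15 libraries, Pearson r of the set's mean was 0.90 with ribosomal protein genes, 0.61 with the rRNA-like percentage, 0.48 with mitochondrially encoded subunits, -0.54 with cell cycle genes and 0.09 with depth. The mean of Sdha and Ndufs1 had r = -0.77 with the ribosomal protein genes, -0.78 with mitochondrially encoded subunits, -0.65 with the rRNA-like share and 0.73 with cell cycle genes. These are descriptions over libraries that share composition and groups, and the part of RNA quality in them was not tested.

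**Figure D4:**
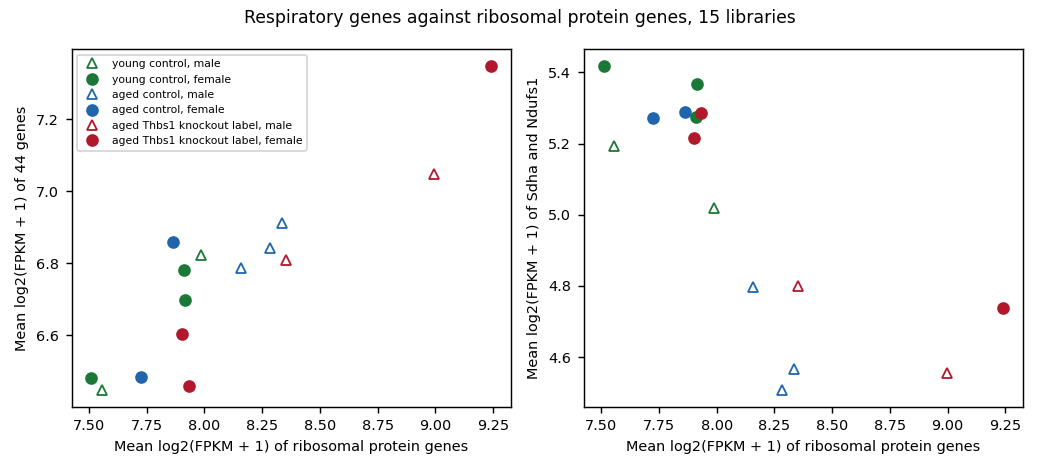
Each point is a library, plotted by its mean log2(FPKM + 1) over ribosomal protein genes against the mean over 44 oxidative phosphorylation genes (left) and over Sdha and Ndufs1 (right); colours mark groups, open triangles male and filled circles female libraries. The left panel climbs to replicates 2 and 5 under the knockout label at 7.047 and 7.349, while on the right the high values belong to libraries low in ribosomal protein genes.

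Coding length ordered the differences as well. Across the 44 genes, Spearman's rho between coding length and log2 difference was -0.36 with age, -0.53 under the knockout label against aged controls and -0.70 against young controls. Over 10053 tested protein-coding genes it was -0.24, -0.23 and -0.41, so the direction was shared with genes at large. The 22 genes of at most 450 coding nucleotides had a median log2 difference of 0.34 under the label against young controls, against 0.15 for the 22 longer ones. Over all tested protein-coding genes the same split gave 0.219 for 794 short genes and -0.108 for the longer ones. In the same order, these medians were 0.194, 0.154, 0.134 and -0.0472 with age. Under the label against aged controls they were 0.123, 0.0126, 0.098 and -0.0555. Genes are not independent replicates, and the 450 limit was chosen after the values were seen.

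**Figure D5:**
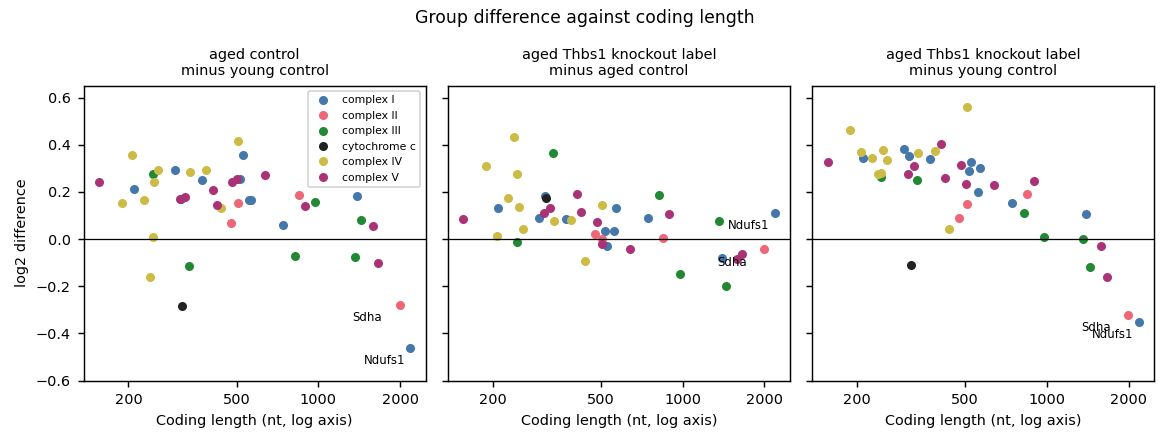
Log2 difference of each of the 44 genes against its coding length in nucleotides (log axis) in 3 comparisons; colours mark the complex. Short genes sit mostly above 0, and Ndufs1, the longest, lies lowest in both comparisons with young controls.

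Between the sexes, Sdha and Ndufs1 were higher in female than in male libraries, while most of the set leaned the other way. The median log2 difference of females against males over the 44 genes was -0.16, with 34 below 0 and 10 above. Over all tested genes the median was 0.015, with 52.1% above 0. With group as a covariate, 2 of 44 genes were called in limma (12.9% of all tested genes), both higher in females (9.67% of all), and 8 of 44 had an unadjusted p under 0.05 (30.4% of all). Sdha had 88.6 ± 13.6 FPKM in the 7 male libraries (SD) and 121 ± 15.9 in the 8 female ones, a log2 difference of 0.44 (SE 0.10, adjusted p = 0.016). Ndufs1 had 7.68 ± 2.11 and 10.8 ± 1.60 FPKM, a log2 difference of 0.43 (SE 0.13, adjusted p = 0.036).

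By library, every female Sdha value exceeded every male one within the young and within the aged controls, and under the knockout label replicate 5, a female library, lay at 84.87 between the males at 65.89 and 90.83. Ndufs1 separated the sexes within aged controls, with males at 5.12 to 7.47 and females at 10.73 and 11.87. It overlapped within young controls, and under the label replicate 5 (7.28) lay beside the males (7.45 and 7.26). Sdha was called in all 15 fits that left out 1 library each, and Ndufs1 in 4 of them. Neither was called with the rRNA-like share as a covariate (log2 differences 0.21 and 0.25). In that fit Uqcrb and Cox7b were called instead, both higher in females. Of all tested genes, 5.36% were called there, and 3.7% were called higher in females.

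Other genes were called between the sexes when a library was left out. Without replicate 5 under the knockout label, 11 genes were called (24.6% of all tested genes in that fit), with Ndufa2, Ndufb8, Ndufb10, Sdhc, Uqcrq, Cox4i1, Cox8a, Atp5d and Atp5e lower in females beside Sdha and Ndufs1 higher. Without young control replicate 1 it was 7 genes (25.3% of all), and without replicates 2 and 5 of the label 6 (20.5% of all). Males carry the lower replicate numbers in every group, so a batch that follows the numbers cannot be told apart from sex. An interaction of sex with group was called for 0 of 44 genes in each of the 3 comparisons, with 1, 0 and 1 at an unadjusted p under 0.05 and smallest adjusted p values of 0.561, 0.999 and 0.585. It was called for 0 of all 11345 tested genes too. With sex as a covariate, 0 of 44 genes were called between the groups. Of all tested genes, 5.51%, 2.11% and 3.78% were called in the 3 comparisons of that fit.

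The rest of the oxidative phosphorylation pathway was examined through fixed gene lists. Of 34 further nuclear subunits, 0 were called in the comparisons of groups (1, 0 and 8 at an unadjusted p under 0.05), and their medians were 0.27, 0.08 and 0.33 in the 3 comparisons. Assembly factors, which build the complexes (43 tested), regulators of respiratory gene expression (19) and carriers, channels and the ATPase inhibitor (9) also had 0 called. So did the 13 genes of the tricarboxylic acid cycle, which feeds the chain. In the same order of lists, the genes at an unadjusted p under 0.05 with age were 5, 1, 0 and 3, those under the knockout label against aged controls 1, 1, 1 and 0, and those against young controls 6, 1, 2 and 1. Over all tested genes the shares at that p were the 20%, 12.9% and 21.2% given above. The lists of this paragraph lay below them with these exceptions: tricarboxylic acid cycle genes with age, and further subunits and carriers under the label against young controls.

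The exception was mt-Nd3, a complex I subunit encoded by mitochondrial DNA. It had 13.85 ± 2.38 FPKM in young controls and 18.4 ± 5.08 in aged controls (SD, n = 5), with no library below 11.14. Under the knockout label it had 0.29 ± 0.233, with a highest value of 0.59. The log2 difference was -3.89 against aged controls (SE 0.19, adjusted p = 4.88e-10) and -3.53 against young controls (adjusted p = 1.73e-09). It was the only called gene among the 9 mitochondrially encoded subunits tested, and the other 8 had positive differences in both comparisons. In limma, 4 of the 9 had an unadjusted p under 0.05 against aged controls (12.9% of all tested genes). Against young controls 8 of the 9 did (21.2% of all), and with age 0 did (20% of all). Both counts above 0 include mt-Nd3. The list medians were 0.62, 0.815 and 0.195 in this order. mt-Co1, the catalytic subunit of complex IV, had 838.5 ± 247, 1005 ± 418 and 1632 ± 971 FPKM in young controls, aged controls and under the label. mt-Co2 and mt-Atp6 were listed at a mean below 1 FPKM and were not tested.

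Between the sexes some of these lists held more calls. Of the 34 further nuclear subunits 0 were called, with a median log2 difference of -0.167. Of the 9 carriers, channels and the ATPase inhibitor 0 were called too, where 12.9% of all tested genes were. Of the 9 mitochondrially encoded subunits, 7 were lower in female libraries (3.27% of all tested genes), among them mt-Nd2 (log2 difference -1.05, SE 0.22, adjusted p = 0.0090) and mt-Co1 (-0.93, SE 0.21, adjusted p = 0.014). With the rRNA-like share as a covariate 0 of the 9 were called, where 1.66% of all tested genes were called lower in females. With 1 library left out 3 to 7 were called, the fewest without replicate 2 of the label. With replicate number in the model 0 were called, where 1 of all 11345 tested genes was. Higher in females were 7 of 43 assembly factors, 3 of 19 regulators and 4 of 13 tricarboxylic acid cycle genes, where 9.67% of all tested genes were. Tfam, which packages and transcribes mitochondrial DNA, had a log2 difference of 0.55 (SE 0.13, adjusted p = 0.016), and Gabpb1, a subunit of the ETS factor GABP, one of 0.48 (SE 0.11, adjusted p = 0.017). Idh3a, of the isocitrate dehydrogenase that makes NADH for complex I, had 0.62 (SE 0.10, adjusted p = 0.0044).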

How the data were processed

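RNA from flow-sorted bone marrow hematopoietic stem cells was sequenced after SMART-Seq v4 library preparation, per the labels' protocols. The authors deposited 1 table of FPKM values for 20696 genes and 15 libraries. The submitters' processing notes name FastQC 0.11.5, STAR and edgeR and the build GRCm38, without settings. Whole reads were recovered from the rounding steps of FPKM, given GENCODE M21 exon lengths: at least 97.5% of held-out values came out whole within 0.1 reads, giving 16650000 to 28620000 reads in genes, and these reads, scaled to their total, were used only in voom.

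Values were analysed as log2(FPKM + 1), a scale that understates changes of low genes. The 11345 genes with a mean of at least 1 FPKM were tested with limma 3.58.1 in R 4.3.3, with an intensity trend, 3 title groups in 1 fit, two-sided tests and Benjamini-Hochberg adjustment over all of them; an adjusted p under 0.05 was a call, and every adjusted p in the text comes from this fit unless voom is named. Female and male libraries were compared with group as a covariate. The script was tested on simulated data. GENCODE M21 gave positions and coding lengths, and RefSeq the promoter windows.

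The genes and lists were chosen with earlier results of these data known. Values per library are given for called genes, for the gene with the smallest p in each complex and comparison, for the highest and lowest genes of each complex, and for X-linked genes. Promoter stretches were printed for genes of smallest p with a motif, since Sdha holds none and Ndufs1 has no window in the table. The alternatives were another pseudocount, other filters, quantile and median scaling, sex, rRNA-like share or replicate number in the model, 2 groups only, grouping by description, a robust fit without trend, and libraries left out. Chosen after values were seen were voom, the interaction of sex and group, the split by coding length, the mean of Sdha and Ndufs1, and the rRNA-like set (annotated rRNA genes with Gm23935, Gm24270, Gm24187 and Mir6236, since 5 of 8 symbols first listed are absent from the table). The protein comparison of the c ring genes was not made.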

Additional observations from a re-analysis of the deposited data

Results flagged for a closer look

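In 78 sets of 5 libraries (each named gene and each complex mean in each group), 4 held a library whose gap to the nearest other exceeded Dixon's 95% critical value, where chance flags about 1 in 20 groups. All 4 were aged controls. Cycs was 25.01 FPKM in replicate 5, against 12 to 15.26 in the other 4. Replicate 4 was the lowest for Cox5a, at 16.43 FPKM against 23.44 to 26.23, for Atp5l, at 3.52 FPKM against 4.83 to 5.25, and for the mean log2(FPKM + 1) of complex I, at 6.088 against 6.394 to 6.504. These 3 share a library and genes that move together, so they are not separate observations. Replicate 5 under the knockout label, the highest library for most genes of the set, was in no case far enough from replicate 2 to be singled out.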

How the results depend on the processing

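Counting error was not set against the spread between libraries, which held 16650000 reads in genes or more. The counts of 0 called genes in the 3 comparisons of groups held under every alternative run, while the calls over all tested genes ranged from 0 to 1176 with age, from 0 to 306 under the label against aged controls and from 15 to 676 against young controls; in the settings with 0 the count could not differ. The lowest values came with grouping by description. The median log2 difference under the knockout label against young controls (0.269) was -0.0223 without replicates 2 and 5 of the label and -0.06 with columns grouped by description. Leaving out 1 library each, the medians ranged from 0.124 to 0.256 with age, from -0.0608 to 0.203 under the label against aged controls and from 0.113 to 0.39 against young controls; both low values came without replicate 5 of the label. The count of genes called between the sexes was 2, where 12.9% of all tested genes were called. It was 1 with no filter (4.16% of all), with median scaling (11%), with voom (10.8%) and with grouping by description (5.1%). With the replicate block it was 0, where 1 of all 11345 tested genes was called and only number 3 held both sexes. It was 6 without replicates 2 and 5 of the label (20.5% of all). With 1 library left out it ran from 1 to 11, where 4.66% to 25.3% of all were called. The mean FPKM filter of 5 removed Atp5l.

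Among the genes with the smallest p in each complex and comparison, none of which was called, signs changed as follows. With grouping by description, the differences with age were 0.337 for Ndufs1, 0.196 for Sdha, -0.165 for Uqcrq, 0.382 for Cycs, -0.125 for Cox4i1 and -0.101 for Atp5o; under the label they were 0.107 for Sdha, -0.00907 for Cycs and -0.0157 for Atp5g1 against aged controls, and 0.382 for Ndufs1, 0.304 for Sdha, 0.373 for Cycs and -0.166 for Cox4i1 against young controls. Without replicates 2 and 5 of the label they were -0.169 for Ndufb3, 0.185 for Sdha and -0.0493 for Atp5g1 against aged controls, and -0.0913 for Uqcrb against young controls. Against aged controls Sdha was 0.0185 with quantile normalization, 0.00881 with median scaling, 0.198 with the rRNA-like share as covariate, and -0.159 to 0.0871 with 1 library left out (0.0457 and 0.0209 without aged control replicates 4 and 5), and Ndufb3 was -0.0458 to 0.305 with 1 library left out, lowest without replicate 5 of the label. The cause was not tested. This restriction to the smallest p was made after values were seen. Over all 20 genes given by library, 1677 alternative values in 3 comparisons held 138 of the other sign, 26 of them where the main difference was beyond 0.2, and 0 with an adjusted p under 0.05. Of the 60 pairs of gene and comparison, 51 had at least 1 value of the other sign.

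Same-numbered libraries of different groups correlated at -0.455 to 0.527 over 15 pairs, and 6 of 15 libraries correlated best with their own number. The pairs at number 2 were all positive (0.489, 0.372 and 0.47), while each other number held both signs. Whether the numbers pair the samples cannot be told from these values, since the numbers also follow sex. With the replicate block, 0 of 44 genes were called in each comparison of groups, where 4.4%, 1.34% and 1.39% of all tested genes were. Between the sexes the log2 difference in that fit was 0.589 for Sdha and 0.723 for Ndufs1, neither of which was called. Only replicate number 3 held both sexes, so this fit rests on its libraries and cannot decide whether the sexes differ.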

Other observations

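Isoforms of complex IV subunits known from other tissues were mostly low. Cox6a2 of muscle and heart was listed at a mean of 0.0833 FPKM and Cox7b2 of testis at 0.611 FPKM, both too low to be tested. Cox4i2, the subunit 4 isoform known from lung, had a mean of 4.61 FPKM against 303 FPKM for Cox4i1. Cox6b2, known from testis, was the exception at 32.8 FPKM, against 468 FPKM for Cox6b1. None of the 3 tested isoforms was called between the groups, where 0 had an unadjusted p under 0.05 in limma. Cox7a1 was lower in female libraries by a log2 difference of -0.61 (SE 0.16, adjusted p = 0.025), at a mean of 1.43 FPKM.

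Among the transcriptional regulators whose motifs were searched, Nrf1 had a mean of 8.66 FPKM, Gabpa 2.69, Yy1 5.91 and Esrra 5.88, and the coactivator Ppargc1a 0.119.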
